A study of Mus musculus with 24 samples.

Results

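The comparison described here sets lymphoid-primed multipotent progenitors (LMPP) against cells gated as haematopoietic stem cells (HSC), both positive for a Rag2-GFP reporter and both from control mice. It uses 6 of the 24 RNA libraries of the series, 3 of each population, chosen by their labels alone. Genotype Ctrl stands for animals that the labels call wild type, with floxed Tal1 alleles (Tal1 F/F) and the Rag2GFP reporter but no VaviCre listed. The KO animals carried the same floxed alleles and reporter together with VaviCre, a recombinase driven by the blood-wide Vav1 promoter. Sorted bone marrow LSK cells (lineage-negative, Sca1-positive, Kit-positive) were divided by CD135 into HSC (CD135-negative) and LMPP (CD135-positive), and by reporter into GFP-negative and GFP-positive cells. The series therefore holds 8 groups of 3 libraries, all from animals with floxed Tal1 and the reporter. The labels give no age or treatment, and whether the replicates came from different mice is not said. The spread behind each p-value is thus that between libraries and may be technical in part.

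HSC renew themselves and give rise to all blood lineages, whereas LMPP have lost most megakaryocyte and erythroid potential and retain lymphoid potential together with some granulocyte and monocyte potential. CD135 is the receptor tyrosine kinase FLT3, and the CD135-negative LSK gate is known to hold other multipotent progenitors beside stem cells. RAG2 is a subunit of the recombinase that assembles antigen receptor genes, so its reporter marks cells in which that locus is active, and TAL1 is a basic helix-loop-helix factor required for the specification of blood and for red cell and megakaryocyte development.

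The values are the authors' normalised counts. Their totals lay between 7074220 and 11969100 in the 6 libraries, and sequencing depth in reads is unknown. Detection differed between the populations: 12.4 to 27.0% of the 16215 tested genes stood under 1 normalised count in the HSC libraries, against 8.09 to 11.7% in the LMPP libraries. The highest share belonged to HSC replicate 2, a library of low detection in which 11982 genes exceeded 1, against 13583 and 14455 in HSC replicates 1 and 3 and 14578 to 15226 in LMPP. One library of another group, KO LMPP GFP-positive replicate 3, had similarly low detection. Mitochondrial ribosomal RNA took 23.9 to 28.9% of the total in HSC and 17.4 to 27.7% in LMPP. The part that detection has in the results was not tested.

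In LMPP 93 genes rose and 52 fell relative to HSC, of 16215 tested (limma, Benjamini-Hochberg adjusted p under 0.05 over all genes tested). These are 0.574% and 0.321% of the genes tested, and 0.894% together. The falls were led by genes of granulocyte and monocyte precursors and by genes of T and innate lymphoid cells, and the rises included few known lineage genes, among them Dntt, Mef2c, Runx2, Tlr7 and Syk. In bulk samples, fewer cells of a type and less RNA per cell cannot be told apart. The gene lists read below were chosen with earlier results of these data known. Their counts, set beside the shares of all genes, are thus no added support. The median of the means of the falls was 472 normalised counts in HSC and 19.7 in LMPP. That of the rises was 10.01 in HSC and 120 in LMPP. For 30 of the 93 rises all 3 HSC libraries lay under 1 ppm of the library total, against 2473 of the 16215 genes tested. For 16 of the 52 falls all 3 LMPP libraries did, against 1720 of the genes tested. HSC replicates 1, 2 and 3 were under 1 ppm in 48, 63 and 41 of the rises, and in 4422, 6385 and 3684 of all genes tested. The 3 LMPP libraries did not overlap the 3 HSC libraries in 92 of the 93 rises and all 52 falls. The calls were made on these same libraries, so their separation is no added support. Among all genes tested every LMPP library lay above every HSC library in 9.4% and below in 4.88%, 14.3% together. By annotation, 82 of the rises and 45 of the falls were protein-coding.

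The balance of rises and falls depended on scaling. The median difference over all genes was 0.19 (log2) with the values as deposited, 0.42 with each library scaled to the same total and -0.11 with each library shifted to the same median. The counts were then 224 rises and 46 falls (83.0% rises) for the former and 54 and 78 (40.9% rises) for the latter, against 64.1% rises in the values as deposited. Without HSC replicate 2 there were 64 rises and 71 falls, of which 31 and 35 were among the genes counted here. Without HSC replicate 3 the counts reached 706 and 203, and without HSC replicate 1 they were 242 and 101. Leaving out LMPP replicate 2 left 11 rises and 25 falls, LMPP replicate 3 left 21 and 29, and LMPP replicate 1 left 49 and 46. From the 6 libraries alone, with no spread shared with the other groups, 0 genes rose and 5 fell, with 1044 genes at an unadjusted limma p under 0.05. Calls that passed in every fit leaving out 1 of the 6 libraries numbered 4 of the 93 rises and 21 of the 52 falls.

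**Figure D1:**
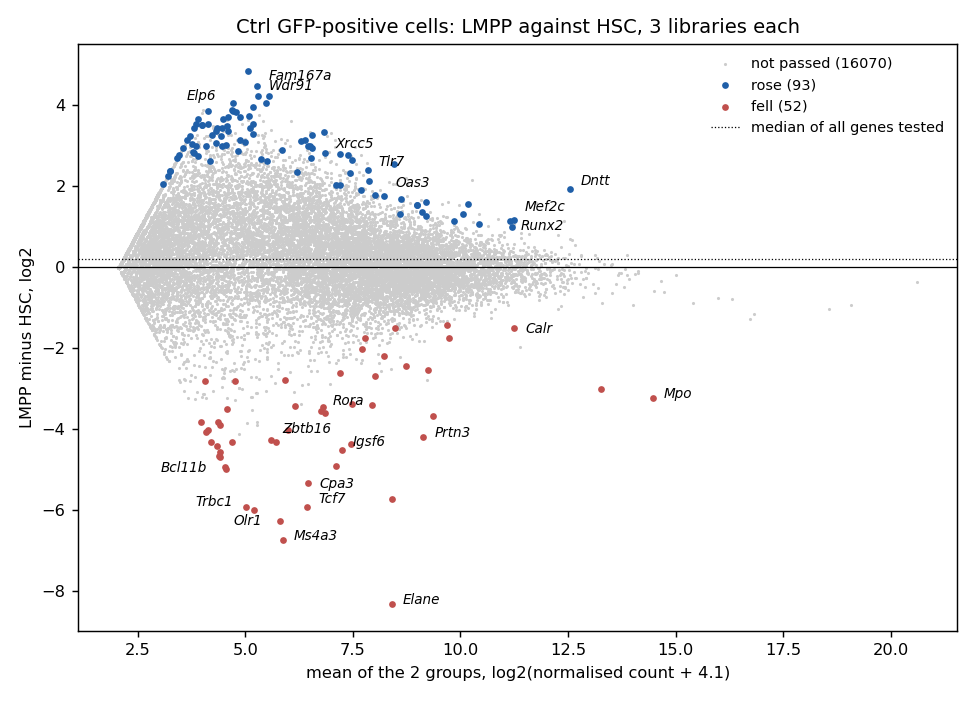
Difference between LMPP and HSC on the log2 scale (y axis) against the mean level of the 2 groups (x axis, log2 of normalised count plus 4.1) for the 16215 genes tested in Ctrl GFP-positive cells. Blue points are the 93 rises, red points the 52 falls and grey points the genes that did not pass. Falls extend to -8.32 for Elane, and most rises lie at low levels.

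The gates were read first. Flt3 (ENSMUSG00000042817, chromosome 5, 147330741 to 147400489 on the minus strand, GRCm38/mm10), which encodes the sorted protein CD135, was 1414, 1790 and 3256 normalised counts in HSC replicates 1, 2 and 3 and 5806, 5957 and 6248 in LMPP. Every LMPP library lay above every HSC library, as the gate requires, although the HSC libraries retained transcript. The log2 difference was 1.57 (SE 0.40, limma adjusted p = 0.0535), and an exact permutation test over libraries (two-sided) gave p = 0.1, its smallest value for groups of 3. Rag2 (chromosome 2, 101624718 to 101632529 on the plus strand), the reporter's gene, was 620, 344 and 405 in HSC and 1635, 1288 and 1072 in LMPP. Both populations carried transcript and their libraries did not overlap, with a log2 difference of 1.56 (SE 0.52, limma adjusted p = 0.14, exact permutation p = 0.1). Neither Flt3 nor Rag2 passed in this fit, which has no replicate block, and both were read only as checks of the labels. Kit, the receptor for stem cell factor that is part of the LSK gate, was 3858, 6626 and 4398 in HSC and 2327, 2577 and 3329 in LMPP (-0.83, SE 0.22, adjusted p = 0.0634). Ly6a, which encodes Sca1, overlapped between groups (31.3, 421 and 139 against 344, 179 and 115).

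Tal1 (plus strand of chromosome 4, 115056426 to 115071755), intact in these animals, was 393, 815 and 326 in HSC and 518, 396 and 575 in LMPP. The groups overlapped, the log2 difference was 0.06 (SE 0.70, limma adjusted p = 0.992) and the exact permutation test gave p = 0.9. In Ctrl GFP-negative cells Tal1 stood at 1793 ± 296 in HSC and 778 ± 178 in LMPP (SD, n = 3), a log2 difference of -1.21 that did not pass (adjusted p = 1).

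Elane, which encodes neutrophil elastase, showed the largest fall. It was 11753, 2232 and 8350 in HSC and 35.9, 0 and 37.2 in LMPP, so every HSC library lay far above every LMPP library. Its log2 difference was -8.32 (SE 0.90, limma adjusted p = 4.94e-06). Ms4a3, a membrane protein gene known from granulocyte and monocyte precursors, was 423, 613 and 828 against 1.62, 0 and 3.78 (-6.73, SE 0.64, adjusted p = 7.13e-07). Olr1, which encodes the receptor LOX-1 for oxidised lipoprotein, was 666, 598 and 297 against 0.175, 0 and 10.8 (-6.28, SE 1.01, adjusted p = 0.0016). A library listed at 0 has no fold, and these differences hold on the scale log2(normalised count + 4.1), which understates changes near 0.

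The proximal promoters of these 3 genes are shown because they had the largest falls with an entry in RefSeq's promoter table. Windows (GRCm38.p6) run from 250 bases before to 50 after the start. Beside them is Zfp3, picked for the most motif matches among the 3 largest rises with an entry. The others of those rises, Wdr91 and Ctnnd2, held no match and are not shown. Each was searched on both strands for the E-box CAGCTG, the other E-box CAGGTG, the GATA motif AGATAA, the RUNX motif TGTGGT and the ETS motif CCGGAA, which do not overlap in the matches found, and matches are in capitals. All 4 are written 5′ to 3′ on the gene's strand.
Elane, chr10:79886062-79886361, plus: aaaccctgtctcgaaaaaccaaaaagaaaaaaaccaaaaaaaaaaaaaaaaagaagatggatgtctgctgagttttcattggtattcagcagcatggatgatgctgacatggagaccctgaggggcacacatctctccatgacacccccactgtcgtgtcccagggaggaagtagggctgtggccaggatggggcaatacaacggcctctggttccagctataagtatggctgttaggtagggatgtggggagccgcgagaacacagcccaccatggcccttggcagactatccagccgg
Ms4a3, chr19:11640802-11641101, minus: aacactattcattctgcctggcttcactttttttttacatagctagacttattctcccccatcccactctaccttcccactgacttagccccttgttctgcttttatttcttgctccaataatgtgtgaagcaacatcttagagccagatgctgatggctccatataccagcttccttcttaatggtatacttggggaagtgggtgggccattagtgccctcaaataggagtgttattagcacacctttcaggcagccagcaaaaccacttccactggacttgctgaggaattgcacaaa
Olr1, chr6:129507116-129507415, minus: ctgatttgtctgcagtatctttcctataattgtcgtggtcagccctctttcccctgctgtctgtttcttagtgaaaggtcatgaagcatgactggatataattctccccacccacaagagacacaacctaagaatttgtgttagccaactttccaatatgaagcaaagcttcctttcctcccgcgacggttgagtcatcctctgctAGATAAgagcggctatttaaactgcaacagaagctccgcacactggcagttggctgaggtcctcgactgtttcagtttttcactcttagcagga
Zfp3, chr11:70764197-70764496, plus: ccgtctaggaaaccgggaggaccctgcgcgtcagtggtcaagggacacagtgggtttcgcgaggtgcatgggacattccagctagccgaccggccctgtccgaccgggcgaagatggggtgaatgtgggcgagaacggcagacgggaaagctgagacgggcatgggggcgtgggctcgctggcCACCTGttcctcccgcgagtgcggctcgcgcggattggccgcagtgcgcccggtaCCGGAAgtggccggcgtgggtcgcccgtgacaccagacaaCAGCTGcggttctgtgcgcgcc
The Elane and Ms4a3 windows held none of these letters. That of Olr1 held AGATAA, which starts 44 bases before the start site and is found in 11.2% of the 32851 promoters in the table. The Zfp3 window held the first E-box, the ETS motif and, on the opposite strand, the other E-box (capitals CACCTG), found in 16.3, 14.9 and 20.2% of promoters. TGTGGT, found in 16.8% of promoters, was in none of the 4. Of the 15 largest falls 13 had an entry, and of the 15 largest rises 12.

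Of the granulocyte and monocyte list, 32 of 33 genes were tested: 10 fell, where 0.321% of all genes fell, and none rose. The median difference was -1.85 against 0.19 over all genes tested. Mpo, the gene of myeloperoxidase, was 106766, 51068 and 62618 in HSC and 9731, 4054 and 10441 in LMPP, and each HSC library exceeded each LMPP library (-3.23, SE 0.49, limma adjusted p = 0.000748). The antisense gene Gm11505 overlaps Mpo and fell likewise (29773 against 3761 on average, -3.02), and reads of the pair cannot be told apart because the counting is not stated to use strand. Prtn3 (proteinase 3) was 3149, 1502 and 2970 against 263, 50.4 and 152 (-4.20, adjusted p = 0.0203), and it overlaps Plppr3 on the opposite strand. Ctsg, which encodes the granule protease cathepsin G, was 4489, 720 and 4040 against 326, 68.2 and 253 (-3.69, SE 0.82, adjusted p = 0.0258). Ly6c2 (a Ly6C antigen of monocytes) was 1213, 199 and 1748 against 14.5, 4.34 and 96.3 (-4.92, adjusted p = 0.00963), with HSC replicate 2 the lowest of its group. Igsf6, an immunoglobulin superfamily member, was 710, 663 and 784 against 43, 14 and 33.3, even among the HSC libraries and less so in LMPP (-4.51, SE 0.78, adjusted p = 0.00343).

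Fcgr3, the gene of an activating IgG Fc receptor, was 111, 104 and 158 in HSC and at most 0.169 in LMPP (-4.93, adjusted p = 0.00168). S100a8, an abundant calcium-binding protein of neutrophils, was 760, 399 and 1646 against 35.9, 64.5 and 155 (-3.40, adjusted p = 0.0287). Calr (calreticulin), the tenth member, is a chaperone of the endoplasmic reticulum in most cells and was 3395, 5914 and 3462 against 1641, 1836 and 1008 (-1.50, SE 0.30, adjusted p = 0.0125). The other 22 tested members did not pass. Among them S100a9, the partner of S100a8, gave -2.53 (adjusted p = 0.107), the chemokine gene Ccl9 -1.33 (0.135), the secretory granule gene Ngp -2.91 (0.163), the ficolin gene Fcnb -3.13 (0.145) and Cebpa, a master factor of granulocytes, -2.09 (0.218). The libraries of S100a9, Ccl9 and Ngp did not overlap, and those of Fcnb and Cebpa did. The summed neutrophil markers S100a8, S100a9, Camp, Ngp and Ltf ran from 1522 to 4043 in HSC and from 121 to 914 in LMPP, all 5 above 1 normalised count in at least 1 library of each group. Their part in the falls was not tested.

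The myeloid falls numbered 10 under each of the 2 scalings. They also numbered 10 without HSC replicate 2, though not of the same genes, since Calr did not pass there (-1.24, adjusted p = 0.0553). With array weights 7 fell, and from the 6 libraries alone 4. Those 4 were Elane (limma adjusted p = 0.0193 from the 6 libraries), Ms4a3 (0.0372), Mpo (0.0372) and Prtn3 (0.0437). Prtn3 did not pass without LMPP replicate 2 (-3.56, adjusted p = 0.123) or 3 (-4.32, 0.0598), and Ly6c2 did not pass without LMPP replicate 2 (-4.13, 0.0911). Ctsg did not pass without HSC replicate 1 (-3.23, 0.0593) or LMPP replicates 2 (-3.02, 0.159) or 3 (-3.93, 0.0626). S100a8 was likewise lost without LMPP replicate 1 (-2.93, 0.12) or 2 (-3.32, 0.113), and Calr also without LMPP replicate 3 (-1.24, 0.0895).

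Other leading falls lay outside that list. Mgam, which encodes the digestive enzyme maltase-glucoamylase, was 132, 369 and 313 in HSC and at most 0.171 in LMPP (-5.93, adjusted p = 9.75e-05). Clec4a2, a C-type lectin gene of myeloid cells, was 13.3, 255 and 178 against at most 0.676 (-4.42, adjusted p = 0.00376). Alox5, the gene of the lipoxygenase that starts leukotriene synthesis, was 63.7, 173 and 86.2 against at most 0.68 (-4.56, adjusted p = 0.0134). Elfn2 was uneven, at 3.57, 672 and 238 against at most 0.17 (-4.70, adjusted p = 0.0134), and did not pass without HSC replicate 2 (-3.40, 0.0693) or LMPP replicates 2 (-4.68, 0.0713) or 3 (-4.69, 0.0564). Alox5 did not pass without LMPP replicate 2 (-4.50, 0.0713) or 3 (-4.62, 0.0522).

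Genes of the T and NK lineage formed the other large group of falls. Of 24 tested members of 35, 6 fell and 1 rose, where 0.321% of all genes fell and 0.574% rose, with a median of -1.75. Of all calls, 5 of the 93 rises and 5 of the 52 falls met the filter on low values only through the group where they were high. They include Bcl11b, Tcrg-C2, Tcrg-C4 and Zap70, and list counts that hold such genes support nothing on their own. Bcl11b, a zinc-finger factor of T lineage commitment (chromosome 12), was 79.3, 186 and 136 in HSC and 0.159, 0 and 0 in LMPP, so it was at or near 0 in all 3 LMPP libraries. Its log2 difference was -4.97 (SE 0.43, limma adjusted p = 2.45e-07). Bcl11b reached 1 ppm in just 3 of the 24 libraries, those of this HSC group, so it met the filter on low values only through the group where it is high and drops out when any of them is left out. From the 6 libraries alone its adjusted p was 0.121.

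Tcf7, the gene of the T cell factor TCF1, was 276, 2462 and 444 in HSC and 0.177, 54.8 and 1.46 in LMPP (-5.92, SE 1.04, adjusted p = 0.00376). HSC replicate 2 was the highest by far, and the groups did not overlap. The constant genes of the T cell receptor loci fell in part: Trbc1 was 162, 423 and 346 against 1.62, 0 and 0 (-5.99, SE 0.64, adjusted p = 4.94e-06). Tcrg-C2 was 120, 239 and 34.7 against at most 0.16 (-4.67, adjusted p = 4.11e-05). Tcrg-C4 was 19.5, 247 and 53.1 against at most 0.158 (-4.07, adjusted p = 0.000701). Constant genes of one T cell receptor locus resemble each other to differing degrees. The counting could split reads of such copies, Trbc1 and Trbc2 included, so their levels are uncertain. Tcrg-C2 and Tcrg-C4 both met the filter only through this HSC group. Tcrg-C1 (-3.90, adjusted p = 0.0635) and Trbc2 (-1.52, 0.535) did not pass. Of the 8 tested constant genes of 15 listed, 3 fell, where 0.321% of all genes fell, and none rose. Those 3 include Tcrg-C2 and Tcrg-C4. Among immunoglobulin constant genes, Ighm was 2021, 7030 and 3510 in HSC and 10143, 7891 and 6427 in LMPP (1.12, 0.106), and Ighd gave 3.32 (0.0634).

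Of the innate lymphoid list, 12 of 19 genes were tested, and 4 fell, where 0.321% of all genes fell. These were Bcl11b and Tcf7, described above, and Zbtb16 and Rora, so the lists share members. Zbtb16 encodes PLZF, a zinc-finger factor used by innate lymphoid precursors and also placed in the stem cell factor list. It was 198, 347 and 136 in HSC and 15.9, 12.5 and 0 in LMPP (-4.28, SE 0.70, limma adjusted p = 0.0018). Rora, a nuclear receptor of type 2 innate lymphoid cells, was 403, 1042 and 118 against 33.1, 14 and 44.2 (-3.55, SE 0.79, adjusted p = 0.0258). In both, every HSC library exceeded every LMPP library. Rora did not pass without HSC replicate 2 (-2.81, 0.104) or LMPP replicates 1 (-3.66, 0.0585), 2 (-3.14, 0.13) or 3 (-3.85, 0.0538). Gata3, a factor of T and innate lymphoid cells, was 11.7, 1136 and 216 in HSC and 25.9, 129 and 9.99 in LMPP, so the groups overlapped (-2.05, adjusted p = 0.364). HSC replicate 2 alone held high levels of the arginase gene Arg1 (682, against 0.246 and 16.2 in replicates 1 and 3) and of Pdcd1, which encodes the receptor PD-1 (467, against 14.8 and 0.225).

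Summed levels of the innate lymphoid markers Gata3, Rora, Il1rl1, Id2 and Icos were 493, 2320 and 446 in HSC and 119 to 212 in LMPP. Icos, the gene of a costimulatory receptor, went the other way, at 35.8, 3.27 and 16.2 in HSC and 58.2, 58.1 and 67.9 in LMPP (1.85, adjusted p = 0.291). Of the mature T cell markers, Cd3e was at 41.7 in HSC replicate 1 and at most 0.117 in the other 5 libraries. Cd4 had every LMPP library above every HSC library, at 51.9, 0.0309 and 8.27 in HSC and 80.9, 64.8 and 143 in LMPP. Cd3d, Cd3g, Trac and Cd8a were not analysed here. Without HSC replicate 2 the innate lymphoid list had 2 falls of 10 tested and a median of -1.03 in place of -2.58, and the T and NK list had 4 falls of 23 and a median of -1.49. From the 6 libraries alone neither list had a member that passed. The part of other cells in these values was not tested.

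**Figure D2:**
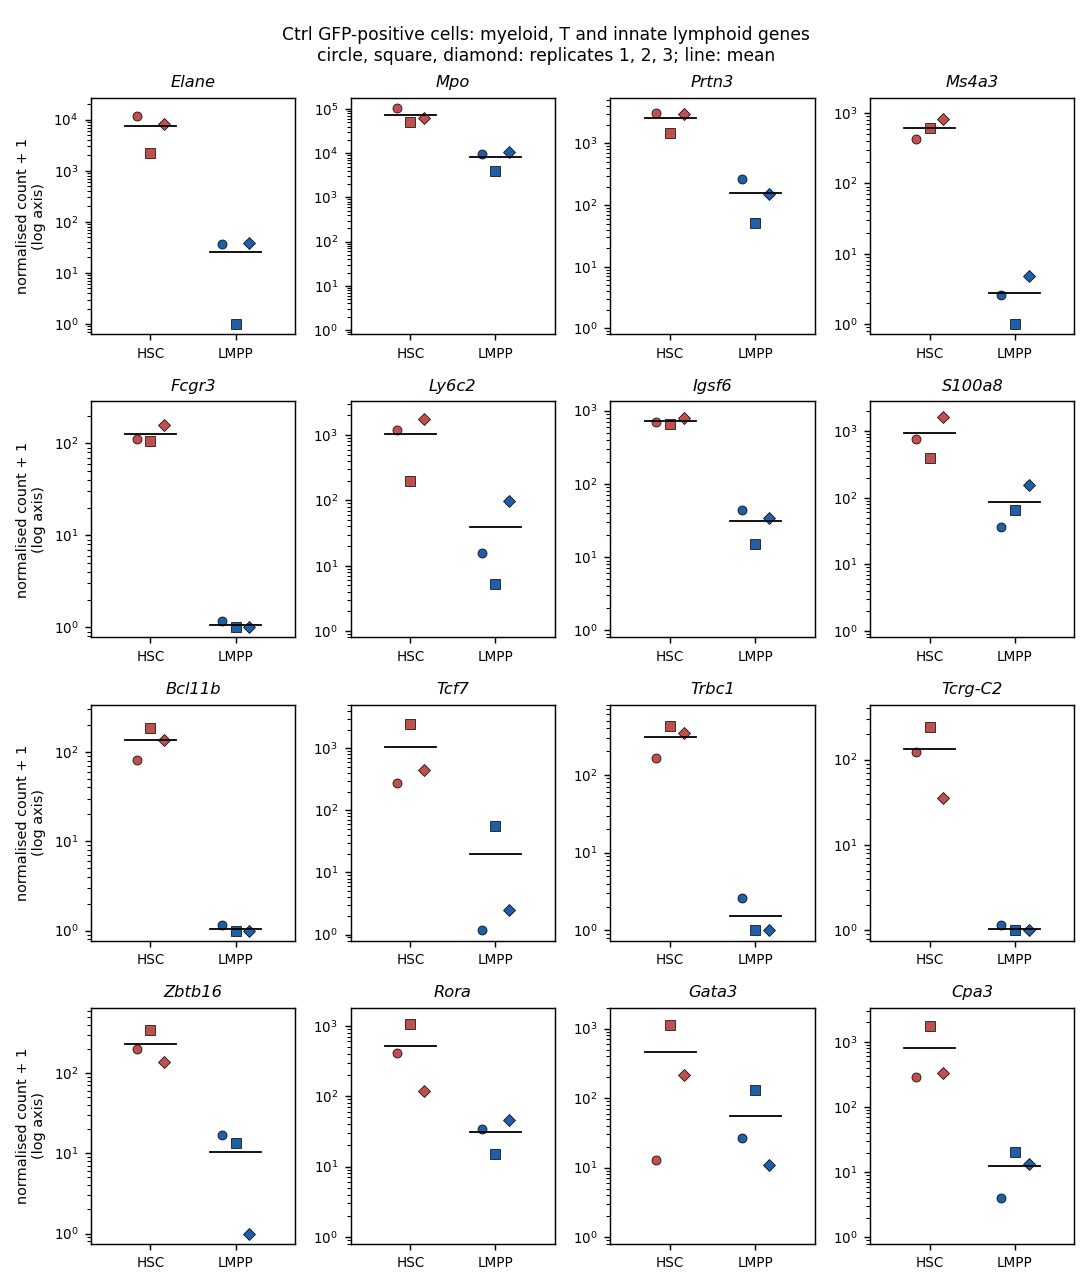
Normalised count plus 1 (log axis) of 16 myeloid, T, innate lymphoid and mast cell genes in the 3 HSC (red) and 3 LMPP (blue) libraries of Ctrl GFP-positive cells. Circles, squares and diamonds are replicates 1, 2 and 3, and lines are means. Bcl11b and Fcgr3 lie at the bottom of the axis in LMPP. HSC replicate 2 is the highest point for Bcl11b, Tcf7, Trbc1, Tcrg-C2, Zbtb16, Rora, Gata3 and Cpa3.

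Cpa3, the mast cell carboxypeptidase gene, was 285, 1758 and 337 in HSC and 3.04, 19.2 and 12.3 in LMPP, again with HSC replicate 2 highest (-5.32, SE 1.03, limma adjusted p = 0.0109). It was the 1 fall among 20 tested genes of the list for mast cells, basophils and eosinophils (median -0.49, and -0.89 with 2 falls without HSC replicate 2). Among all genes tested 0.321% fell. The mast cell protease genes Mcpt4, Cma1 and Tpsb2 stood at 0.26 or less in all HSC libraries. Hdc, which encodes the enzyme of histamine synthesis, gave -3.83 and Fcer1g, the common Fc receptor gamma chain, -1.62, both with adjusted p = 0.082. Cpa3 did not pass without LMPP replicate 1 (-4.84, 0.0527).

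Few genes of the stem cell, megakaryocyte and erythroid lists passed, where 0.574% of all genes tested rose and 0.321% fell. Of 22 stem cell factors Zbtb16 fell and none rose, and 16 had a positive difference. Their median was 0.86 against 0.19 over all genes tested, and 0.23 against 0.096 without HSC replicate 2. Of 27 stem cell surface and quiescence genes none passed, with a median of 0.06 that became -0.24 with libraries shifted to the same median and -0.18 without HSC replicate 2. Hlf, a leucine-zipper factor of stem cells, was 1878, 338 and 1355 in HSC and 1467, 935 and 1182 in LMPP (0.30, adjusted p = 0.775). Mecom, which encodes EVI1, was 344, 3.27 and 133 against 201, 325 and 183 (1.72, 0.278), and 0.09 without HSC replicate 2. Procr, the gene of the stem cell surface receptor EPCR, was detected at 148 in HSC replicate 1 and at 0.0318 and 0.243 in replicates 2 and 3, against 33, 0 and 26.3 in LMPP. The HSC gate was drawn on CD135 and not on this receptor, and a value near 0 in a library of unknown depth does not show that the transcript was absent.

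Slamf1, the gene of CD150, was 36.1, 47.4 and 22.6 in HSC and 10.2, 13.2 and 20.1 in LMPP (-1.07, adjusted p = 0.408). The groups did not overlap, yet the gene did not pass. In Ctrl GFP-negative HSC the same genes stood at 124 ± 16.2 (Slamf1), 4067 ± 977 (Hlf), 478 ± 126 (Mecom) and 135 ± 58.7 (Procr; SD, n = 3). Among stem cell factors, Erg (1.17, adjusted p = 0.0741) and Hoxa9 (0.96, 0.139) had every LMPP library above every HSC library.

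Itga2b, which encodes the platelet integrin CD41, was the 1 fall among 24 tested megakaryocyte and platelet genes: 55.7, 81.9 and 99.2 in HSC against 17.3, 0 and 0 in LMPP (-3.51, SE 0.76, adjusted p = 0.0243). It did not pass without LMPP replicate 2 (-3.11, 0.119) or 3 (-3.11, 0.103). Of 29 erythroid genes none passed, with a median of 0.45 that became 0.04 without HSC replicate 2. Hemgn, an erythroid nuclear protein gene, gave 1.98 (0.122) and the carbonic anhydrase gene Car2 gave 1.02 (0.236).

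Of the lymphoid priming list, 33 of 35 genes were tested: 2 rose, where 0.574% of all genes rose, and none fell. A positive difference was found in 29, with a median of 0.64 against 0.19 over all genes. Dntt encodes terminal transferase, which adds untemplated bases at antigen receptor joints. It was 1619, 4692 and 3740 in HSC and 10625, 14739 and 9885 in LMPP, high in all 6 libraries and without overlap (1.92, SE 0.44, limma adjusted p = 0.0305). Dntt did not pass without HSC replicate 1 (1.46, 0.0873) or LMPP replicates 1 (1.98, 0.0731), 2 (1.75, 0.15) or 3 (2.03, 0.0808). Mef2c, a MADS-box factor of lymphoid progenitors, was 1581, 1328 and 2068 against 3053, 4379 and 3570 (1.15, SE 0.23, adjusted p = 0.0132), and did not pass without LMPP replicate 2 (1.01, 0.103) or 3 (1.16, 0.0522). With each library scaled to the same total, or without the 2 libraries of low detection, 10 and 11 members rose, without HSC replicate 2 alone 5 did, and with libraries shifted to the same median, array weights or the 6 libraries alone, none did.

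Other priming genes differed in level without passing. Rag1, the partner of Rag2, was 13.4, 20.5 and 49.6 in HSC and 225, 96.6 and 231 in LMPP (2.63, SE 0.70, adjusted p = 0.0656). Ebf1, the early B cell factor, was at most 2.19 in HSC and 30.7, 46.1 and 21.2 in LMPP (2.86, 0.0528). Notch1, a receptor needed for the T lineage, was 1651, 1998 and 1445 against 3686, 3071 and 3786 (1.05, 0.0654), and the kinase gene Lck was 0.259, 75.4 and 191 against 285, 603 and 356 (3.29, 0.0896). In these 4 genes every LMPP library lay above every HSC library. This held for 10 of the 33 tested genes of the lymphoid priming list, and the reverse for 3. Among all genes tested the shares were 9.4% and 4.88%. Il7r, the interleukin-7 receptor, overlapped, at 41, 1146 and 236 against 243, 497 and 325 (0.57, adjusted p = 0.807), and became -0.61 without HSC replicate 1.

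Syk, the kinase downstream of the B cell receptor and of Fc receptors, was the 1 rise among 13 tested B lineage genes of 22 (median 1.04): 730, 521 and 646 in HSC and 1169, 1718 and 1264 in LMPP (1.12, SE 0.26, adjusted p = 0.0305). It did not pass without HSC replicate 2 (0.99, 0.0849) or LMPP replicates 2 (0.95, 0.175) or 3 (1.17, 0.0808). Among all genes tested 0.574% rose. Cd79b, a chain of the B cell receptor, was 78.3, 0.0319 and 92.6 against 180, 114 and 188 (2.33, 0.271). Its partner Cd79a was under 1 in all 6 libraries. Zap70, the T cell kinase related to Syk, rose from at most 0.133 to 24.7, 13.3 and 6.4 (2.05, adjusted p = 0.0286), and was the 1 rise of the T and NK list. It met the filter only through LMPP, and did not pass without HSC replicate 2 (2.06, 0.0721).

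Of the dendritic cell and antigen presentation list, 23 of 26 genes were tested, with 2 rises, 1 fall (Ly6c2, above) and a median of 0.78. Among all genes tested 0.574% rose and 0.321% fell. Tlr7, a receptor for single-stranded RNA used by plasmacytoid dendritic cells, was 54.1, 79.8 and 206 in HSC and 492, 604 and 488 in LMPP (2.39, SE 0.52, limma adjusted p = 0.0248). Of the 6 fits leaving out 1 library, Tlr7 passed in that without HSC replicate 3, and its adjusted p in the others ran up to 0.112 (2.29, without LMPP replicate 2). Runx2, a runt-domain factor, was 1314, 1337 and 1998 against 3736, 2743 and 3697 (1.14, SE 0.22, adjusted p = 0.0102), and 1.07 without LMPP replicate 3 (0.0589). Tcf4, the E protein of plasmacytoid dendritic cells, was 1479, 1274 and 1811 against 2462, 2781 and 2542 (0.78, 0.128). Tlr9, Siglech and Irf4 gave 2.85, 1.79 and 2.38 (adjusted p = 0.106, 0.103 and 0.132). In all 6 of these genes every LMPP library lay above every HSC library. Among all genes tested 9.4% did so, and among the 23 list members 7 did, with 1 the other way round. Members that overlapped include Ccr9, a chemokine receptor gene used as a plasmacytoid marker, at 5.19, 802 and 362 in HSC and 178, 103 and 352 in LMPP. The class II gene H2-Aa overlapped too, at 3.55, 0.032 and 65.6 against 35.9, 77.2 and 157.

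**Figure D3:**
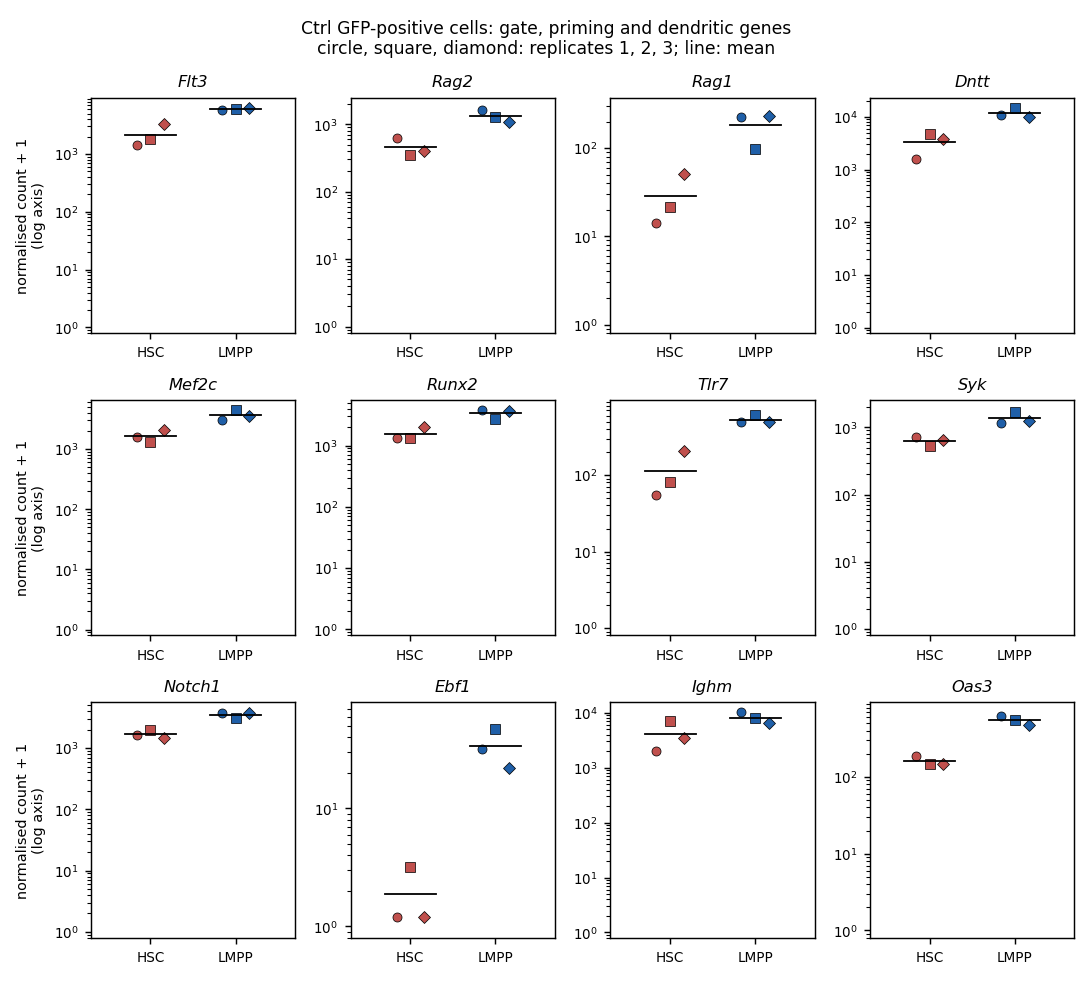
Normalised count plus 1 (log axis) of 12 gate, lymphoid, dendritic and interferon genes in the 3 HSC (red) and 3 LMPP (blue) libraries of Ctrl GFP-positive cells. Circles, squares and diamonds are replicates 1, 2 and 3, and lines are means. The groups are separate for each gene except Ighm, and Dntt, Mef2c, Runx2, Tlr7, Syk and Oas3 passed.

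TAL1 acts with E proteins, LMO and LDB factors. Of the 16 tested genes of 22 in that list, Mef2c, placed there as well, rose and none fell, with a median of 0.13 that became -0.17 with libraries shifted to the same median and 0.03 without HSC replicate 2. Lmo4, a LIM-only factor, was 635, 1157 and 407 in HSC and 183, 271 and 298 in LMPP (-1.43, SE 0.44, adjusted p = 0.106). Among 17 genes of the recombination machinery, Dntt and Xrcc5 rose, where 0.574% of all genes rose. Xrcc5, which encodes the end-joining protein Ku80, was 47.6, 4.34 and 184 against 251, 354 and 304 (2.81, SE 0.64, adjusted p = 0.0287), and 1.63 without HSC replicate 2 (0.0961). It also did not pass without LMPP replicates 1 (2.94, 0.0604), 2 (2.69, 0.121) or 3 (2.80, 0.0926). Hmgb1 was uneven, at 33609, 2545 and 1771 against 1296, 1657 and 1132 (-1.98, 0.164). Of 19 tested Notch receptors and targets Tcf7 fell and none rose, where 0.321% of all genes fell, and Notch2 gave 0.73 (0.082).

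The remaining lists held few or no calls, where 0.574% of all genes tested rose and 0.321% fell. Of 35 interferon response genes Oas3, an RNA-sensing oligoadenylate synthetase, rose: 188, 144 and 149 in HSC against 621, 552 and 480 in LMPP (1.76, SE 0.36, adjusted p = 0.0134). Its values were even within each group, and it did not pass without LMPP replicate 1 (1.67, 0.0565) or 2 (1.75, 0.0713). Ifi44 was 54.1, 78.7 and 200 against 305, 418 and 204 (1.60, adjusted p = 0.0591). Of 27 immediate early and stress genes Nr4a1, an orphan nuclear receptor induced by antigen receptor signals, rose from at most 16.2 to 69.4, 71.7 and 84.4 (3.47, adjusted p = 0.0258). It passed in 1 of the 6 fits leaving out a library, that without HSC replicate 3, with adjusted p up to 0.0974 in the others.

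None of 34 cytokine receptor genes passed (median 0.55, and 0.19 without HSC replicate 2), with Il10rb nearest at 83.3, 126 and 118 against 288, 262 and 354 (1.44, adjusted p = 0.0591). None of 52 cell cycle genes passed, and their median of -0.11 became 0.18 with each library scaled to the same total. None of 26 adhesion and homing genes passed (median 0.12, and -0.19 with libraries shifted to the same median), with Cd44, a hyaluronan receptor, at 1974, 1945 and 2506 against 2933, 3463 and 4265 (0.72, 0.0788). None of 12 stroma and endothelium genes and none of 11 plasma cell and mature B cell genes passed. Sdc1, the plasma cell surface proteoglycan also used by other cells, was 70.3, 123 and 27.4 against 406, 641 and 118 (2.25, 0.213).

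Mitochondrially encoded and ribosomal protein transcripts had negative medians under each scaling tried, with no member passing. All 14 tested mitochondrial genes had a negative difference (median -0.73), and mt-Co1, a subunit of cytochrome oxidase, was 59618, 70068 and 48336 in HSC and 35392, 24426 and 36863 in LMPP (-0.89, SE 0.22, adjusted p = 0.053). Of 77 ribosomal protein genes 69 had a negative difference, with a median of -0.37 that became -0.06 with each library scaled to the same total. The median over all genes tested was 0.19, and 0.42 with that scaling.

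**Figure D4:**
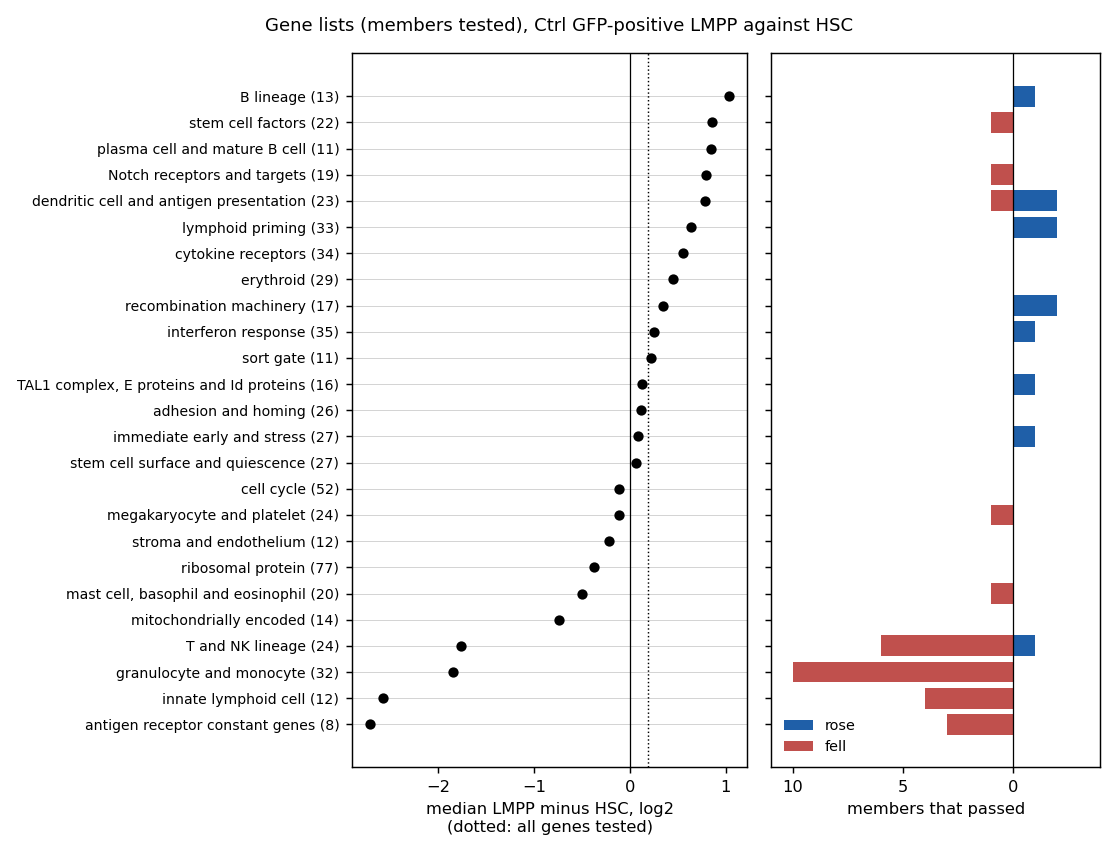
Median log2 difference between LMPP and HSC of the tested members of 25 gene lists (left, dotted line at the median of all genes tested, 0.19) and the number of members that rose (blue) or fell (red) (right). The granulocyte and monocyte list has 10 falls, followed by T and NK lineage with 6, and no list has more than 2 rises. Over all genes tested 0.574% rose and 0.321% fell, and some genes are in more than 1 list. The lists were chosen with earlier results of these data known.

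The largest rises were of genes at low level in the Ctrl GFP-positive HSC libraries, and they share no list. Fam167a was 0.256, 0.0317 and 27.4 in HSC and 243, 117 and 201 in LMPP (4.47, SE 0.85, limma adjusted p = 0.0099). Wdr91, an endosomal regulator gene, was 37.8, 0.032 and 0.246 against 168, 178 and 152 (4.22, adjusted p = 0.0116). Elp6, which encodes a subunit of the Elongator complex, was 1.92, 1.11 and 6.68 against 77.1, 121 and 92.6 (3.84, SE 0.59, adjusted p = 0.000868). In each of the 3 the groups were far apart. Fam167a and Elp6 passed in all 6 fits that left out 1 library, while Wdr91 did not without LMPP replicate 2 (4.17, 0.0656). From the 6 libraries alone Fam167a and Elp6 did not pass (limma adjusted p = 0.362 and 0.332), nor did Fam167a with array weights (0.106). Fbxo17, an F-box protein gene, was at most 6.83 in HSC and 90.4 to 118 in LMPP (4.03, adjusted p = 0.0248). Hoxa6, a homeobox gene that overlaps Hoxa3, was 1.91, 0.0317 and 29 against 74.2, 123 and 188 (3.73, adjusted p = 0.0102). Fbxo17 passed in 2 of the 6 fits that left out 1 library and Hoxa6 in 4. Low levels were not shared by all HSC groups. Elp6 was 74.3, 114 and 85.8 in Ctrl GFP-negative HSC and 63.0, 47.8 and 47.1 in KO GFP-positive HSC. Wdr91 was 110, 89.2 and 99.8 in Ctrl GFP-negative HSC. The part of detection in these rises was not tested.

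The remaining leaders were Ctnnd2 (delta-catenin, 4.20), Zfp3 (4.04), Gpr19 (3.94), Fam83d (3.87), the kynureninase gene Kynu (3.82), Tmem231 (3.70), Alkbh4 (3.70), Sorcs2 (3.65), the GDNF co-receptor gene Gfra1 (3.63) and the keratin gene Krt7 (3.53), with adjusted p between 0.02 and 0.0475. Each passed in 1 to 3 of the 6 fits that left out 1 library. Gfra1 stood at 0.228 or less in all 3 HSC libraries and at 46.4, 33.6 and 73 in LMPP, and was at most 0.0892 in Ctrl GFP-negative HSC. In HSC replicate 2 all of these but Ctnnd2 (65.7) and Gpr19 (1.11) stood at 0.0317 or less.

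The same contrast was read in the 6 Ctrl GFP-negative libraries and in the 6 KO GFP-positive libraries, which share no library with it. In GFP-negative cells 19 genes rose (0.117%) and 41 fell (0.253%), 0.37% together, and in KO GFP-positive cells 49 rose (0.302%) and 50 fell (0.308%), 0.611% together. Of the 52 falls, 5 also fell in GFP-negative cells (9.62% of these falls and 12.2% of those): Elane, Ms4a3, Cpa3, Zbtb16 and Itga2b. In KO GFP-positive cells 17 of the 52 also fell (32.7% of these and 34.0% of those). KO LMPP replicate 3 is a library of low detection (11684 genes over 1), and its part in this overlap was not tested. Of the 93 rises, 2 also rose in GFP-negative cells (Dntt and Tlr7; 2.15% of these and 10.5% of those) and 4 in KO GFP-positive cells (Dntt, Tlr7, Mef2c and Ctnnd2; 4.3% and 8.16%).

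Elane was 703 ± 436 in GFP-negative HSC and 14.9 ± 18.3 in GFP-negative LMPP (SD, n = 3), with a log2 difference of -5.48 (limma adjusted p = 0.00276). In KO GFP-positive cells it was 1915 ± 1486 and 17.5 ± 15.1 (-6.25, adjusted p = 0.000374). The LMPP mean here was 24.4 ± 21.1, so the 3 LMPP groups stood close together while the HSC groups did not. Dntt was 213 ± 67.1 and 2532 ± 568 in GFP-negative cells (3.58, adjusted p = 0.000288) and 970 ± 377 and 13654 ± 7456 in KO GFP-positive cells (3.77, adjusted p = 3.57e-05). In KO LMPP replicate 3, of low detection, Dntt was 22185, against 10388 and 8388 in replicates 1 and 2. The interaction of its difference with the reporter gate was -1.65 and that with genotype 1.85, and neither passed (adjusted p = 0.653 and 0.28). Mpo gave -1.43 in GFP-negative cells (adjusted p = 0.506) and -2.92 in KO cells (0.00242), and the interactions did not pass either (0.653 and 0.879).

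Few genes differed between settings by the interaction test itself: 4 between GFP-positive and GFP-negative Ctrl cells (0.0247% of genes tested), with 1 higher (0.00617%) and 3 lower (0.0185%), and 5 between KO and Ctrl GFP-positive cells (0.0308%), with 1 higher (0.00617%) and 4 lower (0.0247%). Bcl11b was at 0.0299 ± 0.0519 in GFP-negative HSC, and its difference of 0.00304 there was distinct from the -4.97 in GFP-positive cells (interaction -4.98, adjusted p = 0.000262). In KO GFP-positive HSC it stood at 2.02 ± 2.41, and the interaction with genotype was 4.53 (adjusted p = 0.000727). Trbc1 (-5.58, adjusted p = 0.0102) and Tcrg-C2 (-4.72, 0.0154) differed between the reporter gates in the same direction. Bcl11b and Tcrg-C2 entered the test only through Ctrl GFP-positive HSC, so their part in the count of 4 supports nothing on its own. The same holds for Bcl11b in the count of 5 between genotypes. St8sia6, a sialyltransferase gene, differed in both: it was 0.259, 0.032 and 0.245 in HSC and 8.78, 25.1 and 40.3 in LMPP, whereas in GFP-negative cells it was 88.8 ± 24 in HSC and 2.29 ± 3.86 in LMPP. The interactions were 6.57 with the reporter gate (adjusted p = 0.00372) and -7.37 with genotype (0.000727).

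**Figure D5:**
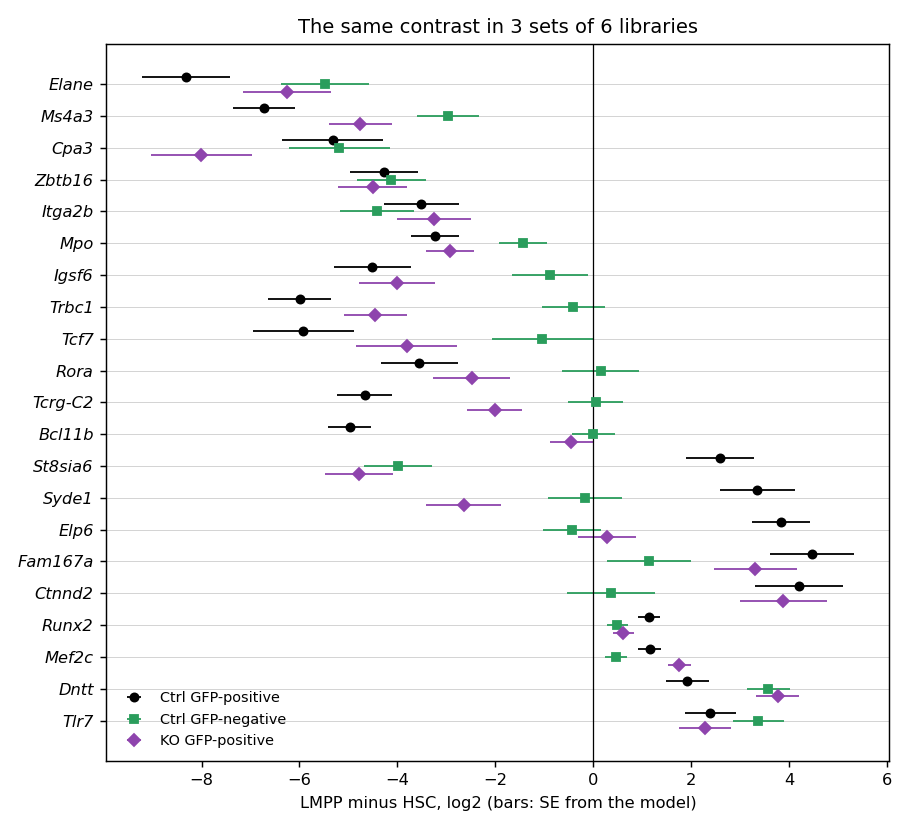
Log2 difference between LMPP and HSC with its SE (x axis) for 21 genes in Ctrl GFP-positive (black circles), Ctrl GFP-negative (green squares) and KO GFP-positive (purple diamonds) cells, each from 6 libraries. Elane, Ms4a3, Cpa3, Zbtb16 and Itga2b lie left of 0 in all 3, Bcl11b does so by -4.97 in Ctrl GFP-positive cells, and St8sia6 lies right of 0 there and left in the other 2.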

How the data were processed

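Per the labels' protocols, total RNA of sorted mouse marrow cells was made into 24 libraries (8 groups of 3) with an ultralow-input kit and read for 76 cycles. Groups and replicate numbers were read from the sample titles. The submitters' processing notes name Trimmomatic 0.33, HTSeq 0.6.1, edgeR and the build mm10. The aligner used, and the normalisation function, are not given in the sources used here. What the authors deposited is a signal table of normalised counts, of which 0.594% lay within 0.001 of a whole number, so no count model was fitted and the depth in reads is unknown.

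A library's total was the base for ppm values, and the filter of 1 ppm in at least 3 of the 24 libraries kept 16215 of 17149 genes. Values were analysed as log2(value + 4.1), the pseudocount being 0.5 ppm of the mean total. Group means of all 24 libraries were fitted in R 4.3.3 by limma 3.58.1, whose empirical Bayes step used an intensity trend (16 residual degrees of freedom, 9.53 prior), without a replicate block, and tests were two-sided. Adjusted p-values are Benjamini-Hochberg values over all genes tested within a comparison. GENCODE M21, on GRCm38/mm10, gave a symbol and position to 16978 gene identifiers and none to 171. The fit was tested on simulated data.

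Libraries carrying the same replicate number deviated together only weakly (correlations of 0.0650, 0.0377 and 0.0638), and the labels do not say what the number marks, so they were not treated as pairs. Genes named are the 15 largest rises and falls with separate groups and at least 5 ppm in the higher group (predicted genes, pseudogenes and receptor segments excluded), a fixed set of gate and stem cell genes, up to 6 passing and 5 other members of each of 25 lists, and the genes leading the 2 interactions. Some genes that this rule names are not reported here. The members and lists were chosen with earlier results of these data known. Alternatives changed the pseudocount, filter, scaling, library weights, libraries fitted and replicate block.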

Additional observations from a re-analysis of the deposited data

Results flagged for a closer look

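The genes below differed between settings by an interaction test in limma, that is, their difference between LMPP and HSC was not the same in Ctrl GFP-positive cells as in the other cells named. With 3 libraries in a group, single libraries were not screened for extreme values.

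Between the reporter gates of Ctrl cells, Bcl11b differed by -4.98 on the log2 scale (SE 0.61, adjusted p = 0.000262). Its level was 79.3, 186 and 136 in GFP-positive HSC and at most 0.0898 in GFP-negative HSC. Bcl11b reached 1 ppm in just these 3 GFP-positive HSC libraries, so the fits that left out any of them dropped it and those that kept it say nothing of its stability. Trbc1 differed by -5.58 (SE 0.91, adjusted p = 0.0102) and passed in 8 of 12 fits that left out 1 library, with adjusted p up to 0.0631. Tcrg-C2 differed by -4.72 (SE 0.80, adjusted p = 0.0154) and passed in 4 of 12, with adjusted p up to 0.0848, and it too met the filter on low values only through GFP-positive HSC. St8sia6 differed by 6.57 (SE 0.98, adjusted p = 0.00372) and passed in all 12.

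Between KO and Ctrl GFP-positive cells, St8sia6 differed by -7.37 (SE 0.98, adjusted p = 0.000727) and Bcl11b by 4.53 (SE 0.61, adjusted p = 0.000727). Bcl11b met the filter on low values only through Ctrl GFP-positive HSC here too, so its value supports nothing on its own. St8sia6 passed in all 12 fits that left out 1 library. Cdh1, the gene of E-cadherin, differed by -4.71 (SE 0.75, adjusted p = 0.00717): it stood at 67.3, 188 and 91.2 in KO GFP-positive HSC and under 1 in the other GFP-positive libraries of both genotypes. Gzmb, which encodes granzyme B, differed by -5.92 (SE 1.01, adjusted p = 0.0164), with 317, 542 and 230 in KO GFP-positive HSC against at most 5.19 in the Ctrl GFP-positive libraries. Syde1 differed by -6.00 (SE 1.07, adjusted p = 0.0247) and passed in 5 of 12 fits that left out 1 library, and Gzmb in 6 of 12. Without the 2 libraries of low detection the values were -4.78 for Cdh1, -5.79 for Gzmb and -4.48 for Syde1, with adjusted p of 0.0903, 0.0903 and 0.0721.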

How the results depend on the processing

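None of the called genes named in the text changed sign in the alternatives that kept the gene (12 of them for Bcl11b and for Zap70), and the cause of the changes in number was not tested. The 93 rises and 52 falls became 224 rises with each library scaled to the same total, 54 rises with libraries shifted to the same median, 6 and 26 with array weights, 341 and 234 without the 2 libraries of low detection, 0 and 5 from the 6 libraries alone, 41 rises from the 12 Ctrl libraries, and 11 to 706 rises and 25 to 203 falls when 1 library was left out. Chosen after seeing the data, the 6 libraries without HSC replicate 2 gave 6 and 15, and genes at 1 ppm or more in all 6 libraries 21 and 23, a filter that by its construction removes genes near 0 in either group.

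The interaction with the reporter gate (1 higher, 3 lower) became 2 higher with a pseudocount of 0.1 ppm, 7 and 8 with 2 ppm, 2 higher with array weights or a replicate block, 5 and 5 without the libraries of low detection, 3 and 1 from the Ctrl libraries, and 1 to 17 higher and 0 to 12 lower with 1 library left out. The interaction with genotype (1 higher, 4 lower) became 0 and 1 with 0.1 ppm, array weights or no low-detection libraries, 7 lower with the same total, 2 lower with the same median, 2 higher with a replicate block, and 0 to 16 higher and 2 to 107 lower with 1 library left out.

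The replicate block gave 129 rises and 69 falls, and with it Flt3 (adjusted p = 0.00741) and Kit (0.0287) passed. HSC and LMPP libraries of one replicate number also share a number in their descriptions, but the labels do not say what it marks, so whether the libraries are paired is not known. Each correlated best with its own number, a hint from the data.

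Differences that had not passed and lay near 0 changed sign. Procr became -0.12 with 2 ppm, -0.049 with the same median, -0.62 without the libraries of low detection, -0.63 from the 6 libraries without HSC replicate 2, and -0.62 to 1.98 with 1 library left out. Hlf became -0.00204 with the same median, -0.12 with array weights, -0.44 without the libraries of low detection and from the 6 libraries without HSC replicate 2, and -0.44 to 0.79 with 1 left out. Tal1 became -0.25 with the same median and -0.21 to 0.45, Il7r -0.61 to 1.72 and Ly6a -0.33 to 1.47 with 1 library left out. Depth in reads is unknown, so a value near 0 cannot be told from a transcript that was not detected.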
